A study of Rattus norvegicus with 14 samples.

Results

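The comparison described here sets the fetal testes of rat litters exposed to 900 mg/kg/day of dicyclohexyl phthalate (DCHP) against those exposed to 600 mg/kg/day. DCHP is a plasticizer of the phthalate ester class. All litters with either dose entered the contrast: 2 litters at 900 and 3 at 600 mg/kg/day, which is 5 of the 14 litters of the series. The dams were Harlan Sprague Dawley rats given DCHP in corn oil by oral gavage on gestational days 14 to 18, and the male fetuses were taken on gestational day 18. The other 9 litters received corn oil alone or 100 or 300 mg/kg/day, 3 litters each, and carry no weight in the contrast. Testes were pooled within a litter, apart from some set aside for testosterone measurement, so a library stands for 1 litter. RNA was measured with TempO-Seq, a targeted assay that joins neighbouring probes on each transcript and sequences the joined product. Of 18174 genes in the table, 12719 had enough counts to be tested.

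Fetal Leydig cells lie between the testis cords and make testosterone from cholesterol. Star carries cholesterol into the mitochondrion, Cyp11a1 cuts its side chain with electrons passed on by ferredoxin (Fdx1), and Hsd3b enzymes and Cyp17a1 complete the path to androgens. Phthalate esters of certain side-chain lengths are known for lowering this set of genes in the fetal rat testis. The contrast asks how the levels of these and other genes differed between 600 and 900 mg/kg/day. It does not compare this step with the step before it, which a separate test described below does.

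Libraries held 5558873 to 11272861 estimated counts, and values below are CPM (counts scaled to a common library size and adjusted for composition). Pearson's r of log2 CPM across genes was 0.974 to 0.977 among the litters at 600, 0.978 between the litters at 900 and 0.958 to 0.972 across the doses. Testis markers were present in all 5 litters: the summed level of 8 Sertoli cell genes was 1282 to 1488 CPM at 900 and 1420 to 1436 CPM at 600, and that of 12 germ cell genes was 1340 to 1415 and 1193 to 1639 CPM. Replicate 1 of the vehicle and replicate 1 of 100 mg/kg/day lay apart from the other litters of their groups. On the first principal component of log2 CPM, which held 33.2% of the variance, they stood at -43.8 and -67.7 and the remaining litters of those groups at 7.77 to 39.2. The litters at 900 stood at -40.2 and -23.5 and the litters at 600 at 5.45 to 20.9, so the litters at 900 lay on the same side as those 2 libraries.

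**Figure D1:**
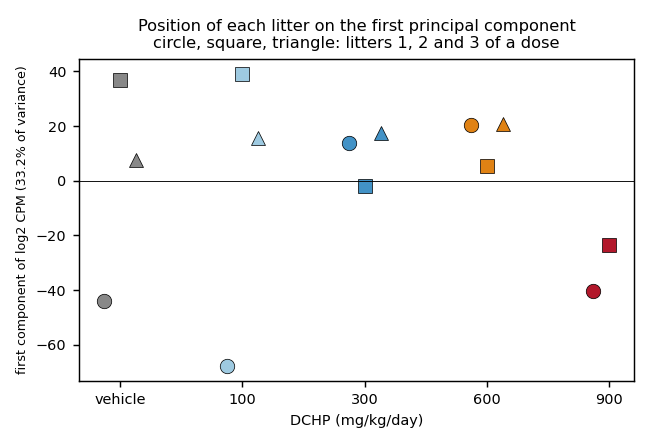
Position of each of the 14 litters (points) on the first principal component of log2 CPM (vertical axis, component score) by DCHP dose (horizontal axis, mg/kg/day). The litters at 900, at -40.2 and -23.5, lie below 0, as do 1 vehicle litter at -43.8 and 1 litter of 100 mg/kg/day at -67.7, while the litters at 600 are at 5.45 to 20.9.

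No gene passed an adjusted p under 0.05 when all 14 libraries shared 1 estimate of the spread (edgeR's quasi-likelihood test, p adjusted by Benjamini and Hochberg's method; 0 of 12719 genes, 0%, lowest adjusted p 0.5081). At an unadjusted p under 0.05 there were 1058 genes, 8.32% of those tested, of which 602 (4.73%) were higher and 456 (3.59%) lower at 900. When only the 5 libraries of the contrast were fitted, 2064 genes (16.2%) passed the adjusted threshold, 1041 (8.18%) higher and 1023 (8.04%) lower. Leaving out replicate 1 of 900 brought that count to 305, and leaving out replicate 1 or 3 of 600 to 1252 or 1236. DESeq2 on 14 libraries called 8 genes and on 5 libraries 1762, and limma voom on 14 called 0. Scaling moved the balance of the 14-library counts at an unadjusted p under 0.05, which were 509 higher and 545 lower with RLE factors and 1292 higher and 183 lower with library totals. The fits differ in the spread they used: the common biological coefficient of variation was 0.232 with 9 residual degrees of freedom for 14 libraries and 0.125 with 3 for 5 libraries. The median within-group variance of log2 CPM was 0.0976 in the vehicle, 0.144 at 100, 0.0335 at 300, 0.0359 at 600 and 0.0219 at 900 mg/kg/day. Of the 2064 genes, 1677 (81.2%) had a difference between the doses that was smaller than the range over the 3 vehicle litters, against 84.6% of all tested genes. That range takes in replicate 1 of the vehicle, which lay apart. It also spans single litters, while the difference is between group means. Without the 2 libraries that lay apart, 1760 genes passed in a fit of the remaining 12, and 1658 of these were among the 2064. Below, each difference is a log2 fold change of 900 against 600 with its standard error (SE) from the 14-library fit, every such gene missing the adjusted threshold there (adjusted p of at least 0.5081), and the text says of most genes named with their values in every litter whether the 5-library fit passed them.

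The step from 600 to 900 was also set against the step from 300 to 600 mg/kg/day, both 300 mg/kg/day wide. No gene passed for a difference between the steps (edgeR, 14 libraries, adjusted p under 0.05, 0%), and 351 (2.76%) had an unadjusted p under 0.05. With the libraries of 300, 600 and 900 mg/kg/day alone, 39 genes passed.

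Several genes of the Leydig cell were lower at 900 than at 600 mg/kg/day, and both litters at 900 stood below all other 12 litters of the series for Cyp17a1, Fdx1, Hsd3b3, Hsd3b1 and Insl3. Hsd3b1 had few counts (a mean of 14.6 over the 5 libraries), at 1.85 to 2.25 CPM at 600 and 1.2 and 1.8 CPM at 900. Its level followed that of Hsd3b3, of the same family, with the same log2 fold change of -0.46. Whether the 2 genes share reads was not tested. Over all tested genes, 170 (1.34%) had both litters at 900 below the other 12. Cyp17a1, the enzyme that turns progestogens into androgens (ENSRNOG00000020035, chromosome 1, 245535462 to 245541574, minus strand, rn7), had 107, 72.9 and 57.0 CPM in the litters at 600 and 20.6 and 31.5 CPM at 900. The doses did not overlap, and the vehicle litters had 223 to 523 CPM. The log2 fold change was -1.60 ± 0.47 (SE; unadjusted p = 0.0044), a level 0.33 times that at 600, with an adjusted p of 0.0525 in the 5-library fit. Fdx1 had 862, 750 and 578 CPM at 600 and 406 and 509 CPM at 900. These litters did not overlap either, with a log2 fold change of -0.67 ± 0.23 and an adjusted p of 0.036 in the 5-library fit, which it passed. Cyp11a1, the side-chain cleavage enzyme, had 369, 322 and 220 CPM at 600 and 136 and 223 CPM at 900. The upper litter at 900 overlapped the lowest at 600, and the log2 fold change was -0.76 ± 0.30 (adjusted p = 0.26 in the 5-library fit).

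Hsd3b3, of the family that forms the 3-keto steroids, had 2692, 2525 and 2202 CPM at 600 and 1441 and 2161 CPM at 900, a log2 fold change of -0.46 ± 0.19 (adjusted p = 0.11 in the 5-library fit). Insl3, the Leydig cell hormone that guides the first phase of testis descent, had 2678, 1233 and 1028 CPM at 600 and 775 and 915 CPM at 900. Its litters at 600 spread widely, and the log2 fold change of -0.96 had a 95% interval from -1.92 to -0.00 (adjusted p = 0.37 in the 5-library fit). Svs5, a gene best known for a seminal vesicle secretory protein, was lower at 900 in the same manner, with 109, 77.6 and 31.6 CPM at 600 against 19.6 and 27.8 CPM at 900 (log2 fold change -1.62 ± 0.39). DESeq2 on 14 libraries called it (adjusted p = 0.0324), and edgeR on 5 libraries did not (adjusted p = 0.24).

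Star and Scarb1, which bring cholesterol to the path, had litters at 900 within the range of those at 600. Star had 54.8, 55.5 and 33.8 CPM at 600 and 45.5 and 47.5 CPM at 900. Its log2 fold change was -0.05 with a 95% interval from -0.65 to 0.56. Scarb1, the receptor that takes up cholesterol from lipoproteins, had 41.5, 54.9 and 31.1 CPM at 600 and 44.0 and 38.9 CPM at 900, with a log2 fold change of -0.04 (95% interval -0.57 to 0.50). Hsd17b3, the enzyme that makes testosterone from androstenedione in the adult testis, was at 262 to 295 CPM at 600 and 261 to 290 CPM at 900 (log2 fold change -0.04, 95% interval -0.30 to 0.22), and at 267 to 292 CPM in the vehicle litters. The stanniocalcins Stc1 and Stc2 were at -0.04 ± 0.25 and -0.00 ± 0.26. The sign of the difference of these 5 genes turned when libraries were scaled by their totals alone. Lhcgr, the luteinizing hormone receptor, was at 1.48 to 2.18 CPM at 600 and 1.08 to 1.29 CPM at 900, which is too few counts to place its difference (-0.56, 95% interval -1.68 to 0.56).

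**Figure D2:**
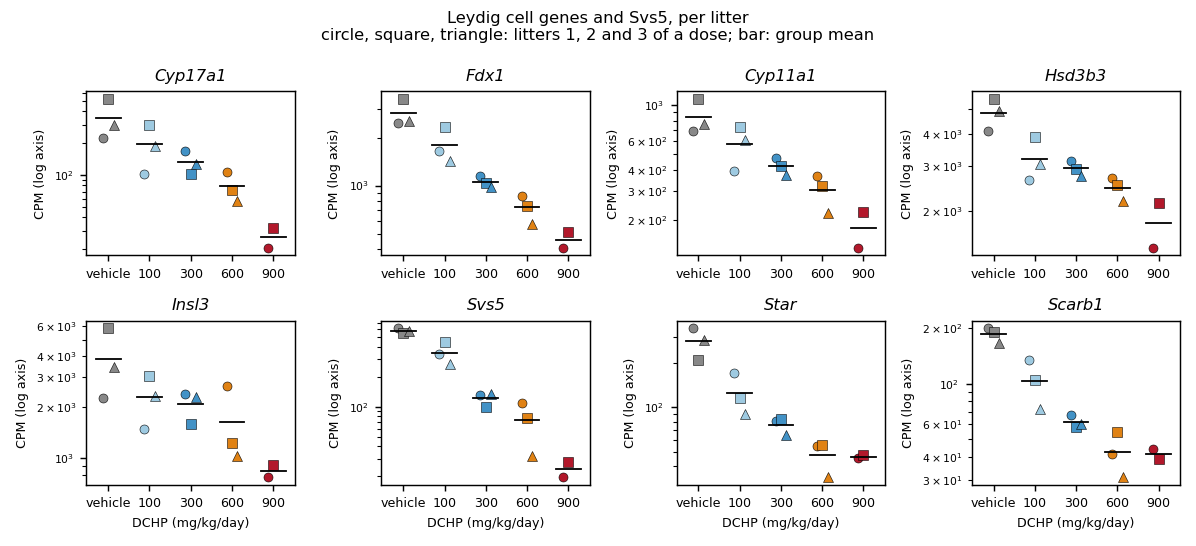
Level per litter (vertical axis, CPM on a log axis) by DCHP dose (horizontal axis, mg/kg/day) for 7 Leydig cell genes and Svs5; points are litters and bars group means. Both litters at 900 lie below all others for Cyp17a1, Fdx1, Hsd3b3, Insl3 and Svs5, while for Star (45.5 and 47.5 CPM) and Scarb1 (44.0 and 38.9 CPM) they lie within the litters at 600.

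Over the 14 tested genes of testosterone synthesis, 3 were lower at an unadjusted p under 0.05 and 0 higher, against 3.59% and 4.73% of all tested genes. These were Cyp17a1, Fdx1 and Cyp11a1. The list holds Hsd3b1 and Hsd3b2, with 321 and 177 counts over all 14 libraries, and not the far more abundant Hsd3b3. Hsd3b3 was lower at an unadjusted p of 0.034 (edgeR, 14 libraries) and enters none of the list's counts, medians or sums. With 5 libraries 2 passed as lower (Fdx1 and Cyb5a) and 1 as higher, against 8.04% and 8.18% of all tested genes. Cyb5a was at 159 to 179 CPM at 600 and 119 and 139 CPM at 900, with 162.5 and 118.1 CPM in the 2 libraries that lay apart. The higher gene was Fdxr, ferredoxin reductase, at 94.5, 88.6 and 76.9 CPM at 600 and 121 and 114 CPM at 900, with 216 and 202 CPM in those 2 libraries. The list's median log2 fold change was -0.04 against 0.03 over all tested genes, and its members ran from -1.60 to 1.12. Of the 14, 4 did not overlap in the lower direction and 5 in the higher direction, against 20.4% and 26.3% of all tested genes. The summed level of the list was 1313 and 1563 CPM at 900 and 1600 to 2139 CPM at 600, with 4812 to 6339 CPM in the vehicle litters (exact permutation test, p = 0.2, the smallest that 2 against 3 litters allow). Without replicate 2 of 600 mg/kg/day the median was 0.13, and 2 of 14 members were lower at an unadjusted p under 0.05. Fewer Leydig cells and less RNA per Leydig cell cannot be told apart in bulk tissue.

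Of 17 tested genes of cholesterol synthesis and uptake, 2 were lower and 0 higher at an unadjusted p under 0.05, against 3.59% and 4.73% of all tested genes. With 5 libraries 1 passed as lower and 0 as higher, against 8.04% and 8.18%. There were 0 lower at an unadjusted p under 0.05 without replicate 1 of 600 or without replicate 1 of 900. Of the 17, 12 had a negative difference against 47% of all tested genes, and the median was -0.17. Idi1, an isomerase of the path, had a log2 fold change of -0.50 ± 0.21 with overlapping litters (adjusted p = 0.107 in the 5-library fit). Sqle and Msmo1, which act on squalene and on its sterol products, were at -0.24 ± 0.12 and -0.58 ± 0.32, with both litters at 900 below the other 12, and neither passed the 5-library fit. Of the 9 further Leydig cell genes only Insl3 was lower at an unadjusted p under 0.05, 0 were higher, and the median was -0.22. Of these 9, 0 passed the 5-library fit, against 16.2% of all tested genes. In this list 2 of 9 did not overlap in the lower direction and 2 of 9 in the higher direction, against 20.4% and 26.3%. The higher ones were Gramd1b, a sterol transfer protein, at 14.8 to 16.6 CPM at 600 and 22.4 and 21.7 CPM at 900 (0.51 ± 0.30), with 39.8 and 38.7 CPM in the 2 libraries that lay apart, and Vcam1, an adhesion molecule, at 1.85 to 4.04 CPM and 4.94 and 4.81 CPM (0.56 ± 0.36). Inha, the alpha subunit of inhibin, was among those that missed it, at 122, 107 and 81.6 CPM at 600 and 80.1 and 84.0 CPM at 900 (-0.34 ± 0.17). Cdkn1c, an imprinted cell cycle inhibitor, was at 4.82 to 6.10 CPM at 600 and 4.46 and 4.29 CPM at 900 (-0.32 ± 0.21). Arhgef38, a guanine nucleotide exchange factor, was at 1.62 to 2.49 CPM and 0.361 and 1.12 CPM (-1.29 ± 0.65), and for both genes the litters at 900 were below the other 12. Testin was at 4.50 to 6.84 CPM at 600 and 6.62 and 6.36 CPM at 900, above the 0.299 to 1.03 CPM of the vehicle, with a difference of 0.25 ± 0.35 between the doses.

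Red cell genes had the median farthest from 0 of the 31 lists. All 9 tested erythroid markers had a negative difference, 5 of 9 were lower at an unadjusted p under 0.05 against 3.59% of all tested genes, 6 of 9 did not overlap in the lower direction against 20.4%, and the median log2 fold change was -1.34. With 5 libraries 2 of 9 passed as lower, Klf1 and Hbz, against 8.04% of all tested genes. Hbb-b1, a beta globin (ENSRNOG00000047098, chromosome 1, 158120200 to 158252013, minus strand, rn7), had 7276, 19210 and 10310 CPM at 600 and 4548 and 3161 CPM at 900. Replicate 2 of 600 was the highest of all 14 litters, and the vehicle litters had 4754 to 9063 CPM. The log2 fold change was -1.67 ± 0.38, called by DESeq2 on 14 libraries (adjusted p = 0.0217) and not by edgeR on 5 (adjusted p = 0.176). Add2, an adducin of the red cell skeleton, had 18.1, 41.8 and 26.8 CPM against 10.1 and 10.2 CPM (log2 fold change -1.50 ± 0.38; adjusted p = 0.0222 in the 5-library fit).

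Klf1, of that list, and 3 named genes outside it that red cells use had lower levels at 900. Car1, a carbonic anhydrase, had 6.13, 11.7 and 7.58 CPM at 600 and 3.01 and 2.23 CPM at 900. Its log2 fold change of -1.69 ± 0.35 passed the 5-library fit (adjusted p = 0.00284) and DESeq2 on 14 libraries (adjusted p = 0.0217). Kel, the Kell blood group protein, had 6.13, 16.3 and 7.95 CPM against 3.13 and 3.09 CPM (log2 fold change -1.70 ± 0.47; adjusted p = 0.0173 in the 5-library fit). Klf1, the erythroid transcription factor, had 4.75, 8.86 and 4.07 CPM against 2.41 and 1.98 CPM (log2 fold change -1.43 ± 0.54; adjusted p = 0.0149 in the 5-library fit). Fech, which inserts iron into protoporphyrin to make heme in many cell types, had 286, 532 and 333 CPM against 222 and 207 CPM (log2 fold change -0.84 ± 0.23; adjusted p = 0.151 in the 5-library fit, which it did not pass). Replicate 2 of 600 was the highest of the 5 litters for each of these genes. Without it the erythroid median was -0.72 and 1 of 9 members was lower at an unadjusted p under 0.05, and without replicate 2 of 900 the values were -0.96 and 1 of 9. The summed erythroid level was 1848 and 2976 CPM at 900, 3497 to 8609 CPM at 600 and 2539 to 5722 CPM in the vehicle litters. How much blood the dissected testes held was not measured, and its part in other differences was not tested.

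Of Hbb-b1, Klf1, Kel, Add2 and Car1, the first 4 have an entry in RefSeq's promoter table (GRCr8; the table of counts is on rn7), and the 250 bases before the start of 3 are shown because these genes were lower together. The entries are at chr1:167643521-167643770 (minus strand), chr19:40158652-40158901 (minus strand) and chr4:120054628-120054877 (plus strand). Capitals mark, on either strand, the word GATA with A or T before it and A or G after it, the letters that GATA factors bind.
Hbb-b1: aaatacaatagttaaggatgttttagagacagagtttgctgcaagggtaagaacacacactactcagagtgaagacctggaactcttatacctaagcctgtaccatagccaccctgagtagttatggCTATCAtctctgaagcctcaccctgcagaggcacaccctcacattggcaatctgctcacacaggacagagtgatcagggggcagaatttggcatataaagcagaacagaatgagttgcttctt
Klf1: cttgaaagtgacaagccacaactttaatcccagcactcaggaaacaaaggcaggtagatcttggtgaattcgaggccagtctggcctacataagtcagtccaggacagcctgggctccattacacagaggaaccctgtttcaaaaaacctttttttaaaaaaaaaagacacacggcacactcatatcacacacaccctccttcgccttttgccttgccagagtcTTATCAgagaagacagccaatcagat
Add2: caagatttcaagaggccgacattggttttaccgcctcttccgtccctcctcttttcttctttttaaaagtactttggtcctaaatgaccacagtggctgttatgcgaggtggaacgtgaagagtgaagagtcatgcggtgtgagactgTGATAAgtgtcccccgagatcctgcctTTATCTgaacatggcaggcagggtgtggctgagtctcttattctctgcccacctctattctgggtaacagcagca
Hbb-b1, Klf1 and Kel each held 1 such word and Add2 held 2, while 27% of the 33469 rat promoter windows of this length held at least 1. A match of letters is a description of the sequence and not a measured site.

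A second set of genes had both litters at 900 beyond every other litter, vehicle included, which was so for 230 genes (1.81%) in the higher direction. Cldn1, a claudin of tight junctions, had 6.75, 5.29 and 4.81 CPM at 600 and 14.6 CPM in both litters at 900. The other 9 litters had 4.68 to 10.3 CPM. The log2 fold change was 1.37 ± 0.34, and the 5-library fit passed it (adjusted p = 0.0014). Ptch1, the receptor and target of hedgehog signals in interstitial cells, had 417, 378 and 404 CPM at 600 and 499 and 502 CPM at 900, all other litters lying at 349 to 417 CPM. That is a small difference of 0.32 ± 0.10, with an adjusted p of 0.0525 in the 5-library fit. Plxdc2, a plexin domain protein, had 65.6, 72.3 and 68.2 CPM at 600 against 102 and 96.6 CPM (log2 fold change 0.53 ± 0.15; adjusted p = 0.00755 in the 5-library fit). Cpe, carboxypeptidase E, had 8.0, 13.1 and 10.4 CPM at 600 and 19.4 and 18.2 CPM at 900 (log2 fold change 0.85 ± 0.25; adjusted p = 0.0155 in the 5-library fit). Itpr3, a calcium channel of the endoplasmic reticulum, and the zinc finger gene Zfp862 were likewise above all other litters, at 1.34 ± 0.31 and 1.70 ± 0.46. The other higher genes of smallest p had both litters at 900 above those at 600 and at least 1 of them below the highest of the remaining 9. They included Mss51 (0.60 ± 0.14), Lurap1 (1.05 ± 0.28), Kcnh5, a potassium channel (1.43 ± 0.37), Fuca1, a lysosomal fucosidase (0.61 ± 0.17), Abhd3 (0.96 ± 0.28), Tmcc3 (0.89 ± 0.26) and Ankrd13b (1.87 ± 0.54), and each passed the 5-library fit.

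In the other direction, Dhrs11, a short-chain dehydrogenase, had 30.6, 38.9 and 39.8 CPM at 600 and 20.2 and 19.4 CPM at 900, below the 24.4 to 35.2 CPM of the other 9 litters. The log2 fold change was -0.88 ± 0.19, passed by the 5-library fit (adjusted p = 0.00157) and by DESeq2 on 14 libraries (adjusted p = 0.0217). Bloc1s2, a subunit of a complex that forms lysosome-related organelles, had 104, 101 and 103 CPM at 600 and 69.4 and 62.8 CPM at 900 (log2 fold change -0.64 ± 0.14). Its upper litter at 900 was above replicate 1 of 100 mg/kg/day, which had 69.2 CPM. It passed the 5-library fit (adjusted p = 0.00111) and DESeq2 on 14 libraries (adjusted p = 0.0342). Magea13, of a family best known from germ cells, had 51.9, 62.8 and 59.5 CPM against 37.7 and 43.5 CPM, below all other litters (log2 fold change -0.52 ± 0.13; adjusted p = 0.0119 in the 5-library fit). Siva1 and Svip, which act in apoptosis signalling and in protein quality control of the endoplasmic reticulum, had no overlap between the doses, at -0.60 ± 0.16 and -0.90 ± 0.25, and both passed the 5-library fit.

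**Figure D3:**
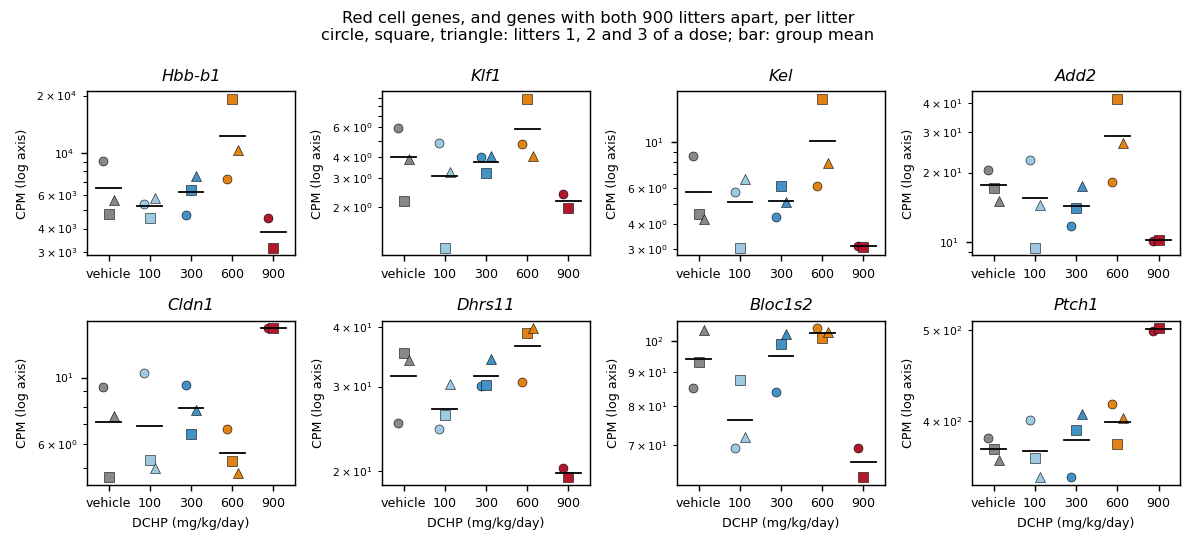
Level per litter (vertical axis, CPM on a log axis) by DCHP dose (horizontal axis, mg/kg/day) for 4 red cell genes (upper row) and 4 further genes (lower row); points are litters and bars group means. In the upper row replicate 2 of 600 (square) is the highest litter, at 19210 CPM for Hbb-b1, and in the lower row both litters at 900 lie above all others for Cldn1 and Ptch1 and below all others for Dhrs11.

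Mmp13, an interstitial collagenase, had the largest difference of the genes named by fold. At 600 it had 0, 0.311 and 0 CPM, and at 900 it had 4.94 and 5.15 CPM. The 600 litters stood apart here rather than the 900 litters, since vehicle, 100 and 300 mg/kg/day litters had 0.45 to 5.88 CPM. In counts there were 101 at 900 and 2 at 600, a ratio of 50.2 after allowing for library size (exact 95% interval 13.5 to 420, covering counting error only). The 5-library fit passed it (adjusted p = 0.000282), as did DESeq2 on 14 libraries (adjusted p = 0.0217). Stk33, a serine/threonine kinase, was also low at 600, with 1.38, 1.24 and 1.85 CPM at 600 and 13.6 and 12.4 CPM at 900 (adjusted p = 4.77e-05 in the 5-library fit). It also varied between litters of other doses, from 0.522 to 17.8 CPM at 100 and from 2.09 to 22.4 CPM at 300. Its log2 fold change in the 14-library fit was 3.13 ± 0.99.

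Among the genes that passed the 5-library fit, the following had levels at 900 near those of the 2 libraries that lay apart. Col3a1, a fibrillar collagen of connective tissue, had 2129, 2485 and 2081 CPM at 600 and 5144 and 4180 CPM at 900. The doses were widely separated, but replicate 1 of the vehicle had 5323 CPM and replicate 1 of 100 mg/kg/day 5954 CPM, against 1559 to 2677 CPM in the remaining litters of those groups. Its log2 fold change of 1.06 had an SE of 0.49 with 14 libraries, and the adjusted p was 0.000107 with 5 and 0.0153 without the 2 libraries. Kmt2c, a histone methyltransferase, had 7.63, 7.00 and 6.10 CPM at 600 and 24.3 and 19.4 CPM at 900, with 22.3 and 23.0 CPM in the 2 libraries (log2 fold change 1.65 ± 0.52). Mest, an imprinted growth gene, had 391, 420 and 368 CPM at 600 and 753 and 672 CPM at 900, with 786 and 935 CPM in the 2 libraries (log2 fold change 0.86 ± 0.37). Nr2f2, a nuclear receptor of interstitial progenitor cells, had 174, 219 and 190 CPM at 600 and 315 and 299 CPM at 900, with 295 and 340 CPM in the 2 libraries (log2 fold change 0.66 ± 0.26). Kmt2c, Mest and Nr2f2 also passed the 5-library fit. What sets the 2 libraries apart was not tested.

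**Figure D4:**
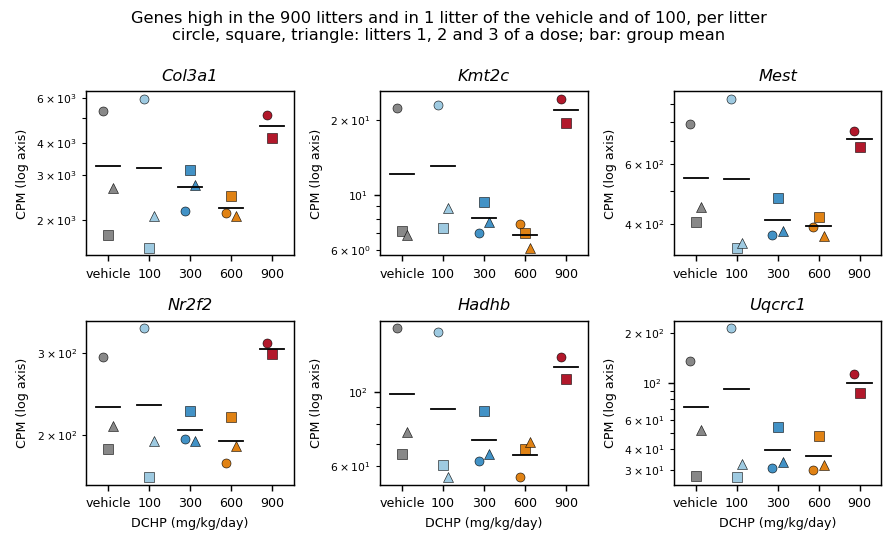
Level per litter (vertical axis, CPM on a log axis) by DCHP dose (horizontal axis, mg/kg/day) for 6 genes chosen after their values were seen; points are litters and bars group means. The litters at 900 lie above those at 600 and level with replicate 1 (circle) of the vehicle and of 100 mg/kg/day, as for Col3a1 with 5144 and 4180 CPM at 900 and 5323 and 5954 CPM in those 2 litters.

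The lists with members of this kind stood as follows. Of 22 collagen and matrix genes 3 were higher and 0 lower at an unadjusted p under 0.05 (Col4a2, Col6a3 and Col3a1), against 4.73% and 3.59% of all tested genes, 13 of 22 did not overlap in the higher direction against 26.3% of all tested genes, and the median was 0.33. With 5 libraries 6 passed as higher and 2 as lower, against 8.18% and 8.04%, and with 1 surrogate variable in the 14-library fit the median was 0.01. Col4a2, a basement membrane collagen, had 379, 384 and 436 CPM at 600 and 528 and 538 CPM at 900, above all other litters (log2 fold change 0.42 ± 0.15). Of 9 interstitial progenitor markers 3 were higher (Ptch1 and Nr2f2 among them) and 0 lower, against the same 4.73% and 3.59%, and 2 of 9 passed as higher with 5 libraries against 8.18%, with a median of 0.32, and without replicate 2 of 900 there were 0 of 9 in either direction. Their summed level was 1110 and 1143 CPM at 900 and 873 to 907 CPM at 600. The imprinted genes Nnat and Mest were the 2 of 9 imprinted growth genes that were higher at an unadjusted p under 0.05, against 4.73%, 0 were lower, and the list's median was 0.11.

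Genes of fatty acid oxidation gave 0 of 16 at an unadjusted p under 0.05 in either direction, against 4.73% higher and 3.59% lower over all tested genes, and 4 of 16 higher and 0 lower in the 5-library fit, against 8.18% and 8.04%. Hadhb, a subunit of the mitochondrial trifunctional protein, had 55.8, 67.6 and 70.7 CPM at 600 and 127 and 109 CPM at 900, with 155 and 150 CPM in the 2 libraries that lay apart (log2 fold change 0.87 ± 0.41). Hadha and Acadm, which act in the same pathway, were at 0.54 ± 0.26 and 0.82 ± 0.40. Uqcrc1, a core subunit of respiratory complex III, was at 29.9 to 47.6 CPM at 600 and 113 and 87.1 CPM at 900 (log2 fold change 1.46 ± 0.77), yet of 20 respiratory chain subunits 0 were higher and 1 lower at an unadjusted p under 0.05, against 4.73% and 3.59% of all tested genes, and the median was -0.09. Me1, malic enzyme, went the other way, with 68.3, 64.8 and 54.2 CPM at 600 and 24.0 and 37.9 CPM at 900, and 39.4 and 24.9 CPM in the 2 libraries (log2 fold change -1.01 ± 0.42). Hadhb, Hadha, Acadm, Uqcrc1 and Me1 passed the 5-library fit. Me1 and Acly, ATP citrate lyase, at 0.52 ± 0.23, made 1 lower and 1 higher of 10 fatty acid synthesis genes at an unadjusted p under 0.05, against 3.59% and 4.73%, and the median was -0.15. Of 13 glycolysis and hypoxia genes 1 was higher and 0 lower, against 4.73% and 3.59%, with a median of 0.32. That gene was Pdk1, a kinase that restrains pyruvate oxidation, at 25.6, 34.0 and 32.2 CPM at 600 and 59.5 and 52.2 CPM at 900, with 58.4 and 62.3 CPM in the 2 libraries (0.87 ± 0.40).

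Of 14 tested proteasome subunits, 4 were lower (Psmc2, Psma7, Psmb1 and Psmb2) and 0 higher at an unadjusted p under 0.05, against 3.59% and 4.73% of all tested genes, and 6 passed as lower and 2 as higher in the 5-library fit, against 8.04% and 8.18%. Psmb1 had 254, 235 and 266 CPM at 600 and 144 and 189 CPM at 900, with 154 and 122 CPM in the 2 libraries that lay apart (log2 fold change -0.60 ± 0.27; adjusted p = 0.00367 in the 5-library fit). Log2 fold changes in the list ran from -0.60 to 1.49. The median was -0.03, and it was 0.07 with libraries scaled by totals alone. Without replicate 1 of 900, 0 of 14 members were lower at an unadjusted p under 0.05. Of 11 ribosomal proteins 2 were lower and 0 higher at an unadjusted p under 0.05, against the same 3.59% and 4.73%, with a median of -0.21 that was 0.00 with 1 surrogate variable. Their summed level was 14182 and 15923 CPM at 900 and 18081 to 20154 CPM at 600, and 13881 and 12400 CPM in the 2 libraries that lay apart. Rpl32 was at 781 to 879 CPM at 600 and at 618 and 669 CPM at 900 (log2 fold change -0.38 ± 0.12), with 646 and 631 CPM in the 2 libraries.

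Of 20 cell cycle genes 1 was lower and 0 higher at an unadjusted p under 0.05, against 3.59% and 4.73% of all tested genes, with a median of -0.04, and with 5 libraries 5 were lower and 1 higher, against 8.04% and 8.18%. Aurkb, a mitotic kinase, had 369, 375 and 387 CPM at 600 and 251 and 273 CPM at 900 (log2 fold change -0.53 ± 0.24), while Cdk1 was at 3.33 to 4.97 CPM at 600 and 11.2 and 7.64 CPM at 900 (1.27 ± 0.67). The 2 libraries that lay apart had 219 and 212 CPM of Aurkb and 12.4 and 14.1 CPM of Cdk1. Ccnd2, a D-type cyclin outside that list, had 3.25, 2.95 and 2.22 CPM at 600 and 11.2 and 7.47 CPM at 900, with 9.03 and 9.01 CPM in the 2 libraries (1.71 ± 0.54). In the Sertoli cell list 1 of 8 was higher, the transcription factor Gata4 (0.86 ± 0.39), and 0 were lower, against 4.73% and 3.59%. With 5 libraries 2 of 8 passed as higher, Gata4 and Dhh, and 1 as lower, Amh, against 8.18% and 8.04%. Dhh was at 16.2 to 19.5 CPM at 600 and 25.5 and 26.5 CPM at 900 (0.58 ± 0.35), with 33.3 and 35.4 CPM in the 2 libraries that lay apart. Amh, the anti-Müllerian hormone, was at 156 to 173 CPM at 600 and 117 and 111 CPM at 900, a log2 fold change of -0.53 ± 0.30 that passed the 5-library fit (adjusted p = 0.00242). Replicate 1 of the vehicle and of 100 mg/kg/day had 95.9 and 86.0 CPM of Amh. Of 12 germ cell markers 0 had an unadjusted p under 0.05 in either direction, and the median was -0.04.

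The integrated stress and unfolded protein list had 1 of 12 higher and 0 lower at an unadjusted p under 0.05, against 4.73% and 3.59% of all tested genes, and with 5 libraries 5 of 12 passed as higher and 0 as lower, against 8.18% and 8.04%. The first was Shmt2 of mitochondrial one-carbon metabolism, with 1.38, 2.80 and 1.11 CPM at 600 and 6.50 and 3.95 CPM at 900 (log2 fold change 1.55 ± 0.51). The 2 libraries that lay apart had 4.57 and 4.96 CPM of it. Shmt2, Psat1 and Herpud1 were among the 5, the rest of which are not given singly. Psat1 was at 39.4 to 43.4 CPM at 600 and 63.8 and 53.4 CPM at 900, with 71.4 and 72.0 CPM in the 2 libraries. Herpud1 was at 60 to 77 CPM at 600 and 92 and 95 CPM at 900, with 108 and 119 CPM in the 2 libraries. The xenobiotic and oxidative stress list had 1 of 8 higher and 0 lower at an unadjusted p under 0.05, against the same 4.73% and 3.59%. That gene was Nqo1, a quinone reductase, at 0.50, 1.71 and 1.48 CPM at 600 and 3.01 and 3.18 CPM at 900 (log2 fold change 1.36 ± 0.58). The 2 libraries that lay apart had 2.78 and 4.31 CPM of Nqo1. Hmox1, heme oxygenase 1, was lower instead, at 118 to 140 CPM against 83.6 and 87.1 CPM (log2 fold change -0.56 ± 0.28, adjusted p = 0.00295 in the 5-library fit). In the 2 libraries Hmox1 was at 114 and 85.7 CPM. Of 6 p53 target and apoptosis genes, 11 immediate early genes and 4 heat shock genes, 0 had an unadjusted p under 0.05 in either direction. With 5 libraries 1 of the 4 heat shock genes passed as lower and 0 of the other lists' genes passed. It was Hspd1, a mitochondrial chaperonin, with 1064, 830 and 953 CPM at 600 and 572 and 688 CPM at 900 (-0.59 ± 0.30; adjusted p = 0.00434 in the 5-library fit), and 549 and 479 CPM in the 2 libraries that lay apart.

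The 4 mesonephric and duct genes summed to 72.0 and 75.2 CPM at 900 and 45.9 to 53 CPM at 600, with 44.3 to 85.6 CPM in the vehicle litters. Of these 4 genes 1 passed the 5-library fit as higher, against 8.18% of all tested genes. That gene was Krt8, an epithelial keratin, with 31.1, 41.0 and 38.8 CPM at 600 and 57.7 and 61.1 CPM at 900 (0.68 ± 0.43; adjusted p = 0.00599 in the 5-library fit), and 71.9 and 72.9 CPM in the 2 libraries that lay apart. Its difference was -0.06 with 1 surrogate variable in the 14-library fit. The 3 surface mesothelium genes summed to 81.5 and 105 CPM at 900 and 84.1 to 115 CPM at 600. The summed level of 8 skeletal muscle genes was 37.7 and 54.0 CPM at 900 and 36.6 to 98.8 CPM at 600 (median 82.2), with a median log2 fold change of -0.79 that was -0.46 without replicate 1 of 600. Mylpf, a fast muscle light chain, was the member lower at an unadjusted p under 0.05, with 48.3, 33.0 and 14.6 CPM at 600 against 20.1 and 14.8 CPM at 900, so its litters overlapped. The 3 adrenal and 4 liver genes summed to 4.72 to 8.08 CPM and 1.85 to 8.25 CPM over the 5 litters. All 7 endothelial markers had a positive difference, against 53% of all tested genes, with a median of 0.26 and 0 at an unadjusted p under 0.05. Tek, an angiopoietin receptor, was at 36.1 to 43.4 CPM at 600 and 50.4 and 50.6 CPM at 900 (0.35 ± 0.19). The part of these cells in other differences was not tested.

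**Figure D5:**
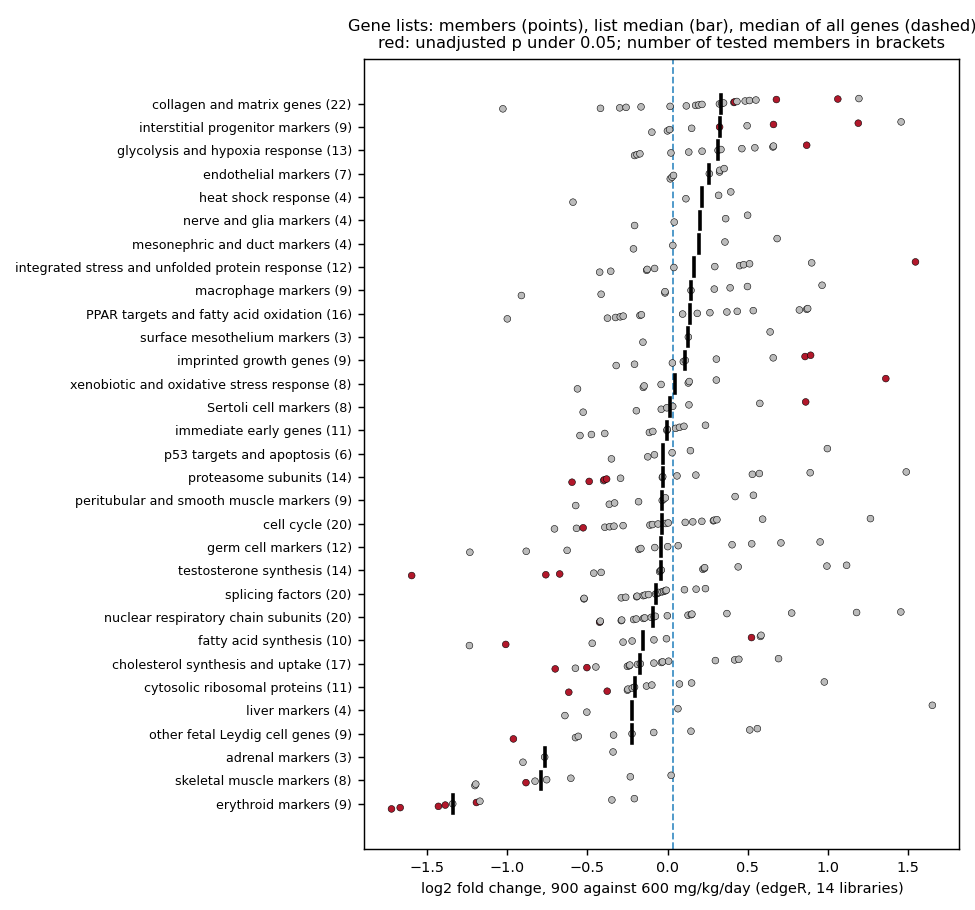
Log2 fold change of 900 against 600 mg/kg/day (horizontal axis, 14-library fit) for the members (points) of 31 gene lists (rows, number of tested members in brackets), with the list median (bar) and the median of all tested genes, 0.03 (dashed line). Red points had an unadjusted p under 0.05; the erythroid list has the lowest median, -1.34, and the collagen and matrix list the highest, 0.33.

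Higher and lower genes also differed in length. The genes higher at 900 at an unadjusted p under 0.05 spanned a median of 33.0 kb of genome and the lower ones 15.5 kb, against 24.1 kb over all tested genes. In the 5-library fit the medians were 29.8 kb and 19.6 kb. Their median counts per library were 167 for the higher and 262 for the lower genes in the 14-library fit. RNA quality was not given in the sources used here, and its part in this difference was not tested.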

How the data were processed

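The estimated counts per Ensembl gene were used as deposited. Per the submitters' processing notes, DESeq2, Partek and STAR 2.7.8a were used with genome build rn7, their roles not being stated; the counting tool is not given in the sources used here. Of the values 83.6% were whole (tolerance 1e-09), and every value was rounded. edgeR 4.0.16 (R 4.3.3) filtered genes with filterByExpr on dose groups (12719 tested, 5455 left out, 99.9% of counts kept), scaled libraries by TMM and fitted 1 robust quasi-likelihood model to all 14 libraries; tests were two-sided and Benjamini-Hochberg adjusted over all tested genes. The 5 libraries of the contrast were also fitted alone, for the same genes. Other fits used DESeq2 1.42.0, limma 3.58.1 and sva 3.50.0. Scripts were tested on simulated data. Attenuation, by which TempO-Seq lowers the signal of abundant transcripts, was undone only in an alternative. Of the tested genes 866 had no name and 34 had counts identical to another gene; a gene with several rows entered a list by the row with most counts.

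The members and the gene lists were chosen with earlier results of these data known. Genes were named by a rule. It took 12 in each direction with the smallest p, a mean count of at least 20 and no overlap of the litters. It also took 6 in each direction with the largest fold at an unadjusted p under 0.01, and up to 4 members of each list by p. A panel was named whatever its values, made of Leydig cell and sterol genes and of Cdkn1c, Svs5, Arhgef38, Stc1, Stc2, Testin, Cpe and Amh. Cpe was named by the panel alone. Fdxr and Hbz were named after their values were seen, and the choice among the genes of the rule was also made then. Lists were described by counts and medians. Counting intervals are exact at 95%. Litters are the replicates; nothing in the labels gives a batch. Some members of the lists are counted but not reported singly here.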

Additional observations from a re-analysis of the deposited data

How the results depend on the processing

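Of 31 settings tried, the libraries in the fit changed the number of genes past the adjusted threshold most. It was 0 with 14 libraries, 2064 with the 5 of the contrast and 2169 with those of 300, 600 and 900 mg/kg/day. Without both libraries that lay apart (replicate 1 of the vehicle and of 100 mg/kg/day) it was 1760. DESeq2 gave 8 on 14 libraries and 1762 on 5. Leaving out 1 library gave 0 in each 14-library fit and 305 (without 900 replicate 1) to 1932 (without 600 replicate 2) in the 5-library fit, with 1252, 1236 and 1644 without 600 replicate 1, 600 replicate 3 and 900 replicate 2. At an unadjusted p under 0.05 the counts were 1058, 3794 with 5 libraries and 3922 with those of 300, 600 and 900 mg/kg/day. They were 3633 without both libraries that lay apart, 3015 with DESeq2 on 5 and 576 with 1 surrogate variable. Without single libraries they were 272 (14-library fit without 900 replicate 1) to 3679 (5-library fit without 600 replicate 2). Without 100 replicate 1 it was 2574, without vehicle replicate 1 it was 1555, and without 600 replicates 1 and 3 it was 610 and 559. RLE scaling gave 509 higher and 545 lower genes and library totals 1292 higher and 183 lower, the median of all genes being 0.03 with TMM and 0.14 with totals. The step difference gave 39 genes with the libraries of 300, 600 and 900 mg/kg/day alone and up to 1 otherwise.

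No paired analysis was possible because each litter had 1 dose and no label links litters of different doses. Replicate numbers serve here only to tell apart the litters of a dose. For 90 genes that the naming rule or the text takes up, 2292 of 2788 gene and setting pairs kept direction and call, 463 gained a call and 33 turned direction, 31 of them in Star, Scarb1, Hsd17b3, Stc1 and Stc2. These values were 0.057, 0.070, 0.061, 0.068 and 0.10 with library totals and 0.0045, 0.015, 0.011, 0.017 and 0.054 with no filter. With 1 surrogate variable Fdxr was -0.0014, Krt8 -0.064, Hsd17b3 0.062 and Stc1 0.31, and Stc2 was 0.0015 with voom and 3.7e-05 with attenuation-adjusted counts. Without single libraries Star was -0.29 to 0.065, Scarb1 -0.26 to 0.19, Hsd17b3 -0.18 to 0.01, Stc1 -0.46 to 0.23 and Stc2 -0.28 to 0.16. Of 961 list medians under alternatives, 112 moved by more than the spread between litters. Depth limits genes with few counts, such as Lhcgr at 1.08 to 2.18 CPM in the 5 litters.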
